A study of Rattus norvegicus with 12 samples.

Results

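CHIR99021 (CHIR), a small-molecule inhibitor of the kinase GSK3, was given to rat extraembryonic endoderm (XEN) cells, and gene expression after 2 days was set against that of untreated cells. The comparison takes the 3 arrays labelled CHIR and the 3 labelled Control, which are 6 of the 12 arrays of the series, and describes all 16633 genes that had a value. CHIR cells received 3 µM CHIR99021 for 2 days. For Control cells no compound is named. Of the other 6 arrays, 3 hold cells given the same 3 µM CHIR99021 for 2 days with 10 µM forskolin, an activator of adenylate cyclase, over the last 1 day, and 3 hold cells given 10 µM forskolin alone for 1 day. Cells of all 4 groups, of the Fisher strain, spent the last day in medium with 0.1% serum, so the effect of CHIR was measured in cells short of serum. The labels speak of parallels and do not say that these were separate cultures, so the p-values cover only the spread seen among them, which may be of technical origin.

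The value of a gene is the median log2 signal of its probe sets on an array, as the authors deposited it, and 1 log2 unit is a 2-fold difference. Differences are CHIR minus Control unless stated, with p-values from limma adjusted by the Benjamini-Hochberg method over all 16633 genes and a threshold of 0.05, and errors are SD with n = 3 arrays per group. Values of single arrays are log2 signals in the order of replicates 1 to 3, and a number in brackets after a gene is its log2 difference. The typical gene varied little within a group, with a median SD of 0.112 in CHIR cells and 0.112 in Control cells. As a measure of background, the 1102 olfactory receptor genes on the array had a median signal of 5.75, and 95% of them lay below 6.42. A gene below 6.42 is called near background. The cells matched their label, since all 8 measured markers of extraembryonic endoderm lay above background in both groups, with array means of 11.59 to 11.62 in CHIR cells and 11.80 to 11.88 in Control cells. Markers of fibroblasts lay near background for 6 of 7 genes, those of mesoderm for 4 of 4 in CHIR cells and 3 of 4 in Control cells, and those of endothelium and blood for 5 of 6 in CHIR cells and 4 of 6 in Control cells. Above background lay 2 of 5 pluripotency markers in both groups. Trophoblast markers lay above it for 2 of 6 in CHIR cells and 0 of 6 in Control cells.

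In the absence of a Wnt signal, GSK3 phosphorylates beta-catenin within a complex built on Axin and APC, which marks it for destruction. When GSK3 is blocked, beta-catenin accumulates, enters the nucleus and activates genes together with TCF and LEF factors. GSK3 also acts in insulin signalling, glycogen synthesis and the turnover of other short-lived proteins, so its inhibition is wider than a Wnt signal. XEN cells stem from the primitive endoderm, which gives rise to parietal endoderm, whose migrating cells deposit a thick basement membrane, and to visceral endoderm, an absorptive epithelium.

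CHIR changed genes upwards and downwards in similar numbers. Of the 16633 genes, 2373 rose (14.3%) and 2304 fell (13.9%), which together are 28.1%. The 3 CHIR arrays all lay above the 3 Control arrays for 3317 genes (19.9%) and all below for 3007 (18.1%). Large changes were more often falls. Among the genes that passed, 310 rose and 485 fell by at least 1 log2 unit, 54 rose and 106 fell by at least 2, and 12 rose and 14 fell by at least 3. Among the 10181 genes above background in either group, 42.6% passed, against 1.18% of the olfactory receptor genes. There were 71 genes that rose by at least 1 log2 unit from a Control mean near background, and 137 that fell by at least 1 to a CHIR mean near background. The median difference over all genes was 0.013. The deposited values had been normalized between arrays, so a shift shared by most genes could not have been seen, and rises and falls are relative to that scale.

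The genes that rose most included those of a chemokine, a growth factor and an R-spondin receptor. Ccl24, which encodes a chemokine, had 10.43, 10.42 and 10.30 in CHIR cells, against 5.62, 5.70 and 5.89 in Control cells, a log2 difference of 4.65 (SE 0.12, adjusted p = 1.15e-11). Igf1, which encodes an insulin-like growth factor, had 9.64, 9.50 and 9.67 in CHIR cells, against 6.22, 6.15 and 6.40 in Control cells, a log2 difference of 3.35 (SE 0.13). Both lay near background on the Control arrays and far above it on all CHIR arrays. Arrays without overlap between the groups were a condition for choosing these leading genes. Lbp, which encodes the lipopolysaccharide-binding protein of the acute phase, had 10.79, 10.91 and 11.29 in CHIR cells, against 7.52, 7.71 and 7.51 in Control cells. Mmp15, which encodes a membrane-bound matrix metalloproteinase, had 11.66, 11.74 and 11.58 in CHIR cells, against 8.44, 8.43 and 8.57 in Control cells. Lbp and Mmp15 lay above background in both groups. Trpm6, a magnesium channel of epithelia, rose by 3.05 log2 units, Atp1b1, a beta subunit of the sodium pump, by 2.93, Slc44a4, a choline transporter, by 3.04, and Hacd3, an enzyme of very long fatty acid synthesis, by 2.95. The other genes among the 20 largest rises were the phosphatase gene Ptpn18 (3.12), the membrane protein gene Emp1 (3.06), the coregulator gene Cited1 (3.56), Pbld1 (3.89), Trim14 (2.89), Ano7 (2.85), the carbonic anhydrase gene Car7 (2.83), the phospholipase gene Pla1a (2.79), the calcium-binding protein gene S100g (2.76), and the Wnt genes Lgr5, Tcf7 and Axin2.

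The genes that fell most included a transcription factor, a cytoskeletal protein and receptors at the cell surface. Tfec, which encodes a transcription factor of the MiT/TFE family, had 6.25, 5.07 and 6.09 in CHIR cells, against 11.53, 11.34 and 11.30 in Control cells, a log2 difference of -5.58 (SE 0.22, adjusted p = 2.99e-10). Vim, which encodes the intermediate filament vimentin, had 8.11, 8.86 and 9.37 in CHIR cells, against 13.30, 13.07 and 13.11 in Control cells, a log2 difference of -4.38 (SE 0.22). The CHIR arrays of both genes spread over more than 1 log2 unit, those of Tfec all below the background level, while the Control arrays lay close together. In bulk samples like these, fewer cells of a type and less RNA per cell cannot be told apart. Insrr, a receptor kinase of the insulin receptor family, had 7.13, 6.84 and 7.94 in CHIR cells, against 10.82, 10.80 and 10.56 in Control cells. Tshr, the thyrotropin receptor, had 5.33, 5.39 and 5.44 in CHIR cells, against 7.98, 8.28 and 8.21 in Control cells. Insrr also spread over more than 1 log2 unit among CHIR arrays, and Tshr lay at background on every CHIR array. Smo, the signal transducer of the Hedgehog pathway, fell by 2.96 log2 units, Slc6a2, the noradrenaline transporter, by 2.86, Masp1, a protease of the complement system, by 3.17, and Galnt14, an enzyme that starts O-glycosylation, by 2.76. The other genes among the 20 largest falls were Cubn (-4.19), Tmem63c (-4.26), Gpm6b (-3.71), Lmo1 (-3.71), Cttnbp2 (-3.51), Elfn1 (-3.13), and genes described with their pathways, namely Ret, Fgfr3, Sfrp1, Rspo3, Tnnc1 and Acta1.

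**Figure D1:**
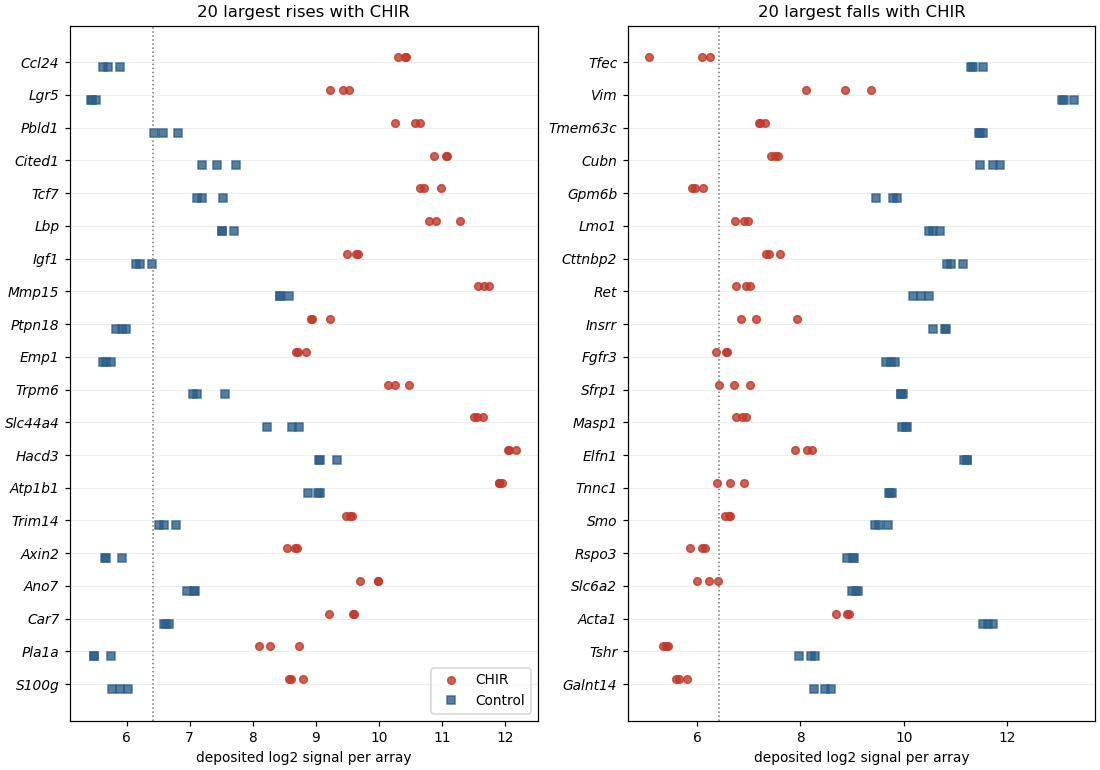
Deposited log2 signal of the 20 genes with the largest rises (left) and the 20 with the largest falls (right), 1 point per array, with CHIR as red circles and Control as blue squares. The dotted line marks the background level of 6.42. For all 40 genes the 3 CHIR arrays lie to 1 side of the 3 Control arrays, which the rule for choosing them required, and Vim, Tfec and Insrr show a wide spread among CHIR arrays.

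Within the Wnt pathway, some feedback inhibitors rose with CHIR, while some secreted antagonists and a related gene fell. Axin2, a scaffold of the destruction complex and a direct target of beta-catenin, had 8.70, 8.54 and 8.67 in CHIR cells, against 5.66, 5.92 and 5.67 in Control cells, a log2 difference of 2.89 (SE 0.14, adjusted p = 2.78e-09). Rnf43, a ubiquitin ligase that removes Wnt receptors, had 9.11, 9.15 and 9.34 in CHIR cells, against 7.34, 7.32 and 7.30 in Control cells, a difference of 1.88 (SE 0.10). Sfrp1, a secreted Wnt antagonist, had 6.72, 6.43 and 7.03 in CHIR cells, against 9.95, 9.95 and 9.98 in Control cells, a difference of -3.23 (SE 0.15). The groups did not overlap for these 3 genes, of which Axin2 was near background on the Control arrays. Of the 18 measured feedback inhibitors, antagonists and related genes, 4 rose and 4 fell, and the list median was -0.02. The other rises were Nkd2 (0.62) and Wif1 (0.45). Wif1 was near background in both groups (means of 6.34 in CHIR cells and 5.89 in Control cells). Its call was lost without Control replicate 2 or without CHIR replicate 1. The other falls were the antagonists Dkk1 (-0.36) and Dkk3 (-0.47) and the pseudoreceptor Bambi (-0.61), which is in this list but is not a Wnt antagonist. The call of Dkk1 was lost without Control replicate 1, 2 or 3 or without CHIR replicate 2. Nkd1 (-0.05), Notum (0.09) and Sp5 (-0.21), which are Wnt targets in other tissues, were near background in both groups and did not pass.

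Among ligands, 1 of 22 rose and 2 fell (13.6% in all, against 28.1% over all genes). Wnt4 rose by 0.69 log2 units, Wnt7b fell by 2.23 and Rspo3, an R-spondin that amplifies Wnt signals through Lgr receptors, fell by 2.94. Rspo3 had 6.15, 6.10 and 5.87 in CHIR cells, against 8.91, 9.01 and 9.03 in Control cells, so it lay near background on all CHIR arrays. Of the 16 receptors, 5 rose and 5 fell, a passing share of 62.5%. Lgr5, a receptor for R-spondins, had 9.43, 9.23 and 9.52 in CHIR cells, against 5.45, 5.44 and 5.52 in Control cells, a log2 difference of 3.92 (SE 0.13). No CHIR array of Lgr5 came near the Control range. The frizzled receptors split, with Fzd6 (2.50) and Fzd5 (1.59) higher and Fzd4 (-2.05), Fzd2 (-0.91), Fzd1 (-0.40) and Fzd7 (-0.26) lower. Fzd7 was near background in both groups (means of 6.10 in CHIR cells and 6.36 in Control cells). Its call was lost without Control replicate 2 or 3 or without CHIR replicate 1 or 2. The coreceptor Lrp5 (1.04) and the R-spondin receptor Lgr4 (0.31), whose call was lost without any 1 of the 6 arrays, rose, and Ror2, a receptor for Wnt signals that do not pass through beta-catenin, fell (-1.34).

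Inside the cell, 6 of 22 components rose and 2 fell, with a list median of 0.08. Tcf7, a transcription factor that binds beta-catenin, had 10.66, 10.72 and 10.98 in CHIR cells, against 7.11, 7.53 and 7.20 in Control cells, a log2 difference of 3.50 (SE 0.15). The corepressor gene Tle1 rose (1.24), Gsk3b, which encodes a form of the inhibited kinase, rose by a little (0.37), and Pygo1, which encodes a nuclear partner of beta-catenin, fell (-1.89). Ctnnb1, the gene of beta-catenin itself, had 12.45, 12.51 and 12.44 in CHIR cells, against 12.39, 12.37 and 12.49 in Control cells, and did not pass (adjusted p = 0.69), and neither did Gsk3a (0.18). Lef1 (0.08) was near background. The count of rises in this list was 3 without Control replicate 3 or without CHIR replicate 3.

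The promoters of Axin2 and Tcf7 are printed because the binding word of TCF and LEF factors lies in both. The motif searched was CTTTGAT on either strand, in windows of 250 bases before to 50 after the gene start taken from RefSeq on the rat assembly GRCr8. A window was found for 13641 of the measured genes, and 3.04% of these windows held the motif, against 4 of 59 (6.78%) for the genes of the 4 Wnt lists together. The other genes of the 4 were Nkd1 and Sp5, described above as near background. Among genes that rose by at least 2 log2 units, 3 of 40 windows held it (7.5%), those of Axin2, Tcf7 and Slc44a4, and among genes that fell as far, 0 of 80. Over all genes that rose the share was 2.47% (50 of 2021), below that of all windows, and over all genes that fell it was 1.61%. Such a match is a description of the letters, and no binding was measured. Capitals mark the motif. The Axin2 window is chr10:94398535-94398834 on the plus strand, and the Tcf7 window is chr10:36954230-36954529 on the minus strand.
Axin2: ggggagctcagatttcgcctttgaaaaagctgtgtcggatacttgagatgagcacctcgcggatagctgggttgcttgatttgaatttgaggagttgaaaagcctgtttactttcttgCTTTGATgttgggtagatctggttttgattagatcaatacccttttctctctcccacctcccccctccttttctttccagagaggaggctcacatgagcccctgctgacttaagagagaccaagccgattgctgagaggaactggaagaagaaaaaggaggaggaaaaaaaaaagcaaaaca
Tcf7: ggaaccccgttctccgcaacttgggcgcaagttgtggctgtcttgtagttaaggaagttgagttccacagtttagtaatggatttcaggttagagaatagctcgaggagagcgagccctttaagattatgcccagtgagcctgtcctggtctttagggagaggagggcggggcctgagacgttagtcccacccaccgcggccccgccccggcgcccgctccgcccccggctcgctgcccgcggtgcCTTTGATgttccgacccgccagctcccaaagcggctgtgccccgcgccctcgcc

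**Figure D2:**
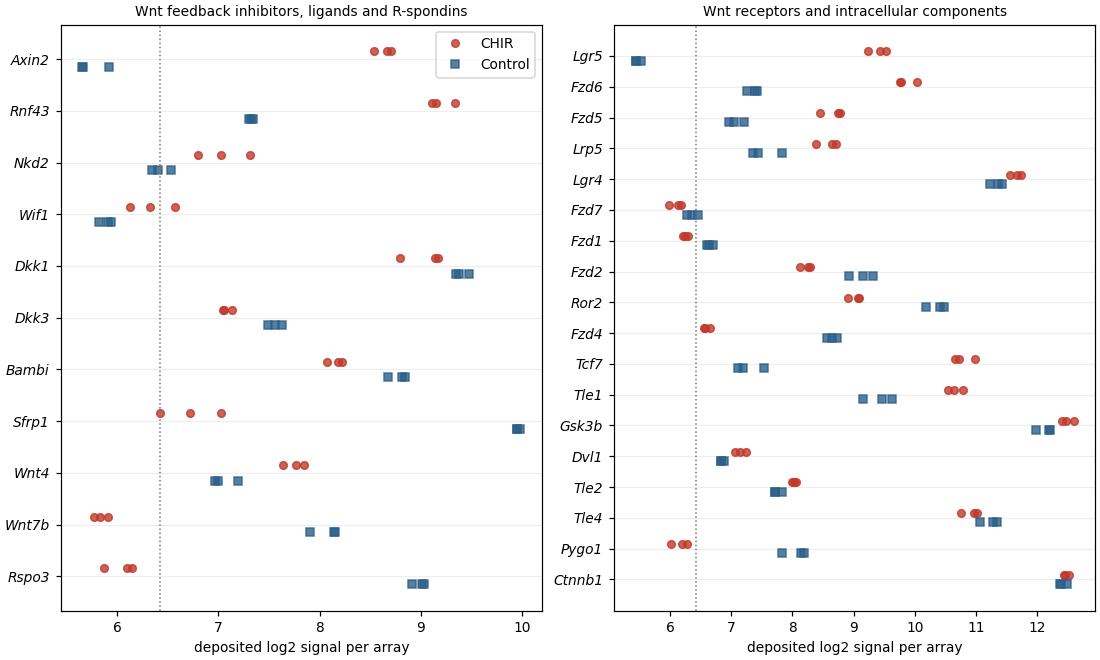
Deposited log2 signal of components of the Wnt pathway, 1 point per array, with CHIR as red circles and Control as blue squares and the background level of 6.42 as a dotted line. The left panel holds feedback inhibitors and related genes, ligands and an R-spondin, and the right panel receptors and intracellular components. Lgr5 and Axin2 lie near background on the Control arrays and well above it with CHIR, while Ctnnb1 lies between 12.37 and 12.51 on all 6 arrays.

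Genes of cell division rose together with CHIR. Of 58 measured genes of mitosis and the spindle, 51 rose and 0 fell, and the median difference was 0.52. Of 54 genes of DNA replication, 38 rose and 0 fell, with a median of 0.38. The mitotic genes were led by the spindle motor Kif4a (1.16), the kinetochore motor Cenpe (1.15), Prc1 (1.07), which bundles the central spindle, the condensin subunit Ncapg (1.01) and the motor Kif14 (0.94). Kif4a had 10.77, 10.94 and 10.74 in CHIR cells, against 9.66, 9.67 and 9.63 in Control cells. The replication genes were led by the kinase Cdc7 (1.60), the loading factor Cdc6 (1.56), Uhrf1 (1.23), which links replication to DNA methylation, the origin subunit Orc1 (1.12) and the polymerase subunit Pola2 (0.99). Cdc7 had 9.88, 9.83 and 9.72 in CHIR cells, against 8.10, 8.28 and 8.24 in Control cells. The 2 groups lay apart for both genes, each by a shift small beside those of the leading genes. Mki67, a widely used marker of cycling cells, had 12.53, 12.38 and 12.48 in CHIR cells, against 11.82, 12.04 and 12.04 in Control cells, and rose by 0.50 (adjusted p = 6.23e-04). No gene of either list fell, and at an unadjusted p under 0.05 in limma the count of falls was also 0 in both lists. Of 37 genes of DNA repair and cohesin, 16 rose and 1 fell, led by Rad54b (1.10), Blm (0.90), Parp1 (0.87) and Fancd2 (0.84), and the gene that fell was Fancl (-0.43).

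The regulators of the first growth phase went both ways. Of 46 cyclins, CDK inhibitors, E2F and Myc family genes and p53 targets, 13 rose and 6 fell. Cdkn1a, which encodes the CDK inhibitor p21, had 10.76, 10.80 and 10.86 in CHIR cells, against 9.67, 9.70 and 9.65 in Control cells, a rise of 1.13 (adjusted p = 1.47e-07). Ccne2 (0.72), E2f1 (0.72), E2f3 (0.67) and Phlda3 (0.54) rose, and Ccnd1, which encodes cyclin D1, rose by 0.54. Myc had 5.13, 5.18 and 5.17 in CHIR cells, against 6.55, 6.60 and 6.73 in Control cells, so it was near background on all CHIR arrays and just above it on the Control arrays, and fell by 1.47. Mxd4 (-1.83), whose product opposes Myc, and the CDK inhibitor gene Cdkn1c (-1.30) fell as well. The CDK inhibitor genes Cdkn1a and Cdkn1c thus went opposite ways. The fall of Myc rests on its dimmer probe sets, since its brightest differed by -0.07 (adjusted p = 0.809).

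The promoters of Pole2 and Kif4a are printed because each carries the motif that was the most frequent, of those searched, in its group. Pole2, a subunit of the leading-strand polymerase, rose by 0.97. The E2F motif TTTGGCGC was found in 11 of 48 replication promoters (22.9%), against 0.733% of all windows, and its variant TTTCCCGC in 9 of 48 (18.8%), against 1.66%. The CHR motif TTTGAA, the cell cycle homology region of G2 and M phase genes, was found in 35 of 50 mitotic promoters (70%), against 15% of all windows and 10.4% of replication promoters. Over all genes that rose, the shares were 1.24% for the E2F motif and 14.2% for CHR, and over all genes that fell, 0.269% and 9.15%. The CHR and TCF/LEF words share the letters TTTGA, so 1 stretch can hold parts of both. Capitals mark the motif, which in Pole2 stands in reverse complement. The Pole2 window is chr6:93435312-93435611 on the minus strand, and the Kif4a window is chrX:69761633-69761932 on the plus strand.
Pole2: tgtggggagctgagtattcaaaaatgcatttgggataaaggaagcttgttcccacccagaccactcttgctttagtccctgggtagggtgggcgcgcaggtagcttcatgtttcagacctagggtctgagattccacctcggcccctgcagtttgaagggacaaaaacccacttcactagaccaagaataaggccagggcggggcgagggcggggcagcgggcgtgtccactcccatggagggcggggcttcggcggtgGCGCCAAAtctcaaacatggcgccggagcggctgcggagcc
Kif4a: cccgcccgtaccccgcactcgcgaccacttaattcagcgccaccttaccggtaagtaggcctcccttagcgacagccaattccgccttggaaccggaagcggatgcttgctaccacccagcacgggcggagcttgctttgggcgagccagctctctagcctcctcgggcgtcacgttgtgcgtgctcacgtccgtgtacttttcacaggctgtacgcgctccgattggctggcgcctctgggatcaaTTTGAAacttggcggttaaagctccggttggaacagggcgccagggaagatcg

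Genes that build ribosomes and supply amino acids held more rises than falls. Of 44 genes of ribosome biogenesis and translation, 17 rose and 0 fell (0 at an unadjusted p under 0.05 in limma as well), with a median of 0.24. They were led by Gnl3 (1.00), a nucleolar GTPase of proliferating cells, the RNA polymerase I subunit Polr1a (0.85), Odc1 (0.74), which starts polyamine synthesis, and Nop2 (0.59). Of 15 cytosolic tRNA synthetases, 7 rose and 0 fell (1 at an unadjusted p under 0.05), led by Tars1 (0.64). Of 69 mitochondrial ribosomal proteins, 19 rose and 1 fell, while of 74 cytosolic ribosomal proteins, 3 rose and 3 fell. Among 41 genes of amino acid synthesis and ATF4 targets, 16 rose and 5 fell. The rises included the transaminase gene Gpt2 (1.70), Psph (1.11) of serine synthesis, Mthfd1 (1.11) of the folate cycle and the glutamine transporter gene Slc1a5 (0.95). Gpt2 had 10.01, 9.84 and 9.98 in CHIR cells, against 8.36, 8.23 and 8.14 in Control cells. The falls were led by Prodh (-1.57), which breaks down proline, and Atf4 itself did not pass (-0.13). The falls in this list numbered 8 with the mean of the probe sets, 2 with the brightest, and 3 without Control replicate 2 or 3 or without CHIR replicate 1 or 2.

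**Figure D3:**
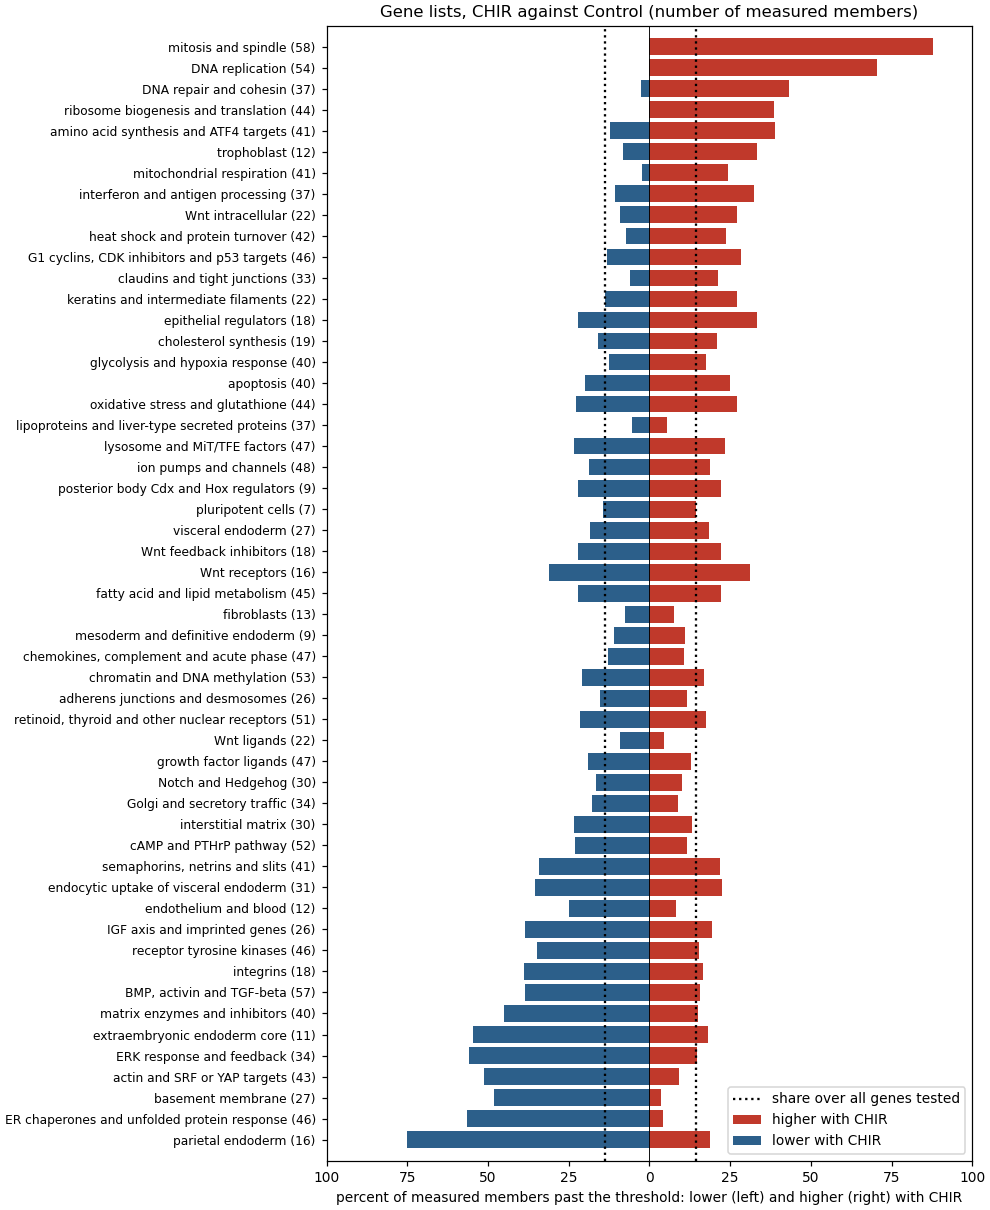
Percent of the measured members of each of 53 gene lists that rose (red, right) or fell (blue, left) past the threshold in CHIR against Control, with the number of measured members in brackets. Dotted lines mark the shares over all genes, 14.3% higher and 13.9% lower. Mitosis and DNA replication stand at the top with 87.9% and 70.4% of members passing, all of them higher, and parietal endoderm, ER chaperones, basement membrane and actin targets stand at the bottom.

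Most parietal endoderm genes fell, while visceral endoderm genes moved in both directions. Of 16 parietal endoderm genes, 12 fell and 3 rose, with a median of -0.53. Plat, the tissue plasminogen activator of parietal endoderm, had 8.54, 8.83 and 9.00 in CHIR cells, against 11.21, 11.08 and 11.14 in Control cells, and Nid1, a linker of the basement membrane, had 10.71, 10.75 and 10.66 in CHIR cells, against 12.66, 12.76 and 12.82 in Control cells. The 2 groups lay well apart for both genes, and both kept a signal far above background in CHIR cells. All 10 markers of parietal endoderm were above background in both groups, with array means of 10.95 to 11.15 in CHIR cells and 12.36 to 12.40 in Control cells, and the 10 of visceral endoderm had means of 8.48 to 8.56 in CHIR cells and 8.51 to 8.55 in Control cells. Thbd, or thrombomodulin, fell by 1.39, and Sparc (-0.14) did not pass, though it did with the mean of the probe sets (-0.17, adjusted p = 0.0378) and with an intensity trend (adjusted p = 0.0205). Of 27 visceral endoderm genes, 5 rose and 5 fell, with a median of 0.04 that ran from -0.09 at the brightest probe set to 0.14 without dim genes. The difference between the 2 lists was not tested. Ihh (1.52), a hedgehog ligand, Lrp2 (1.43), the uptake receptor megalin, Cdh1 (1.31), or E-cadherin, Hnf4a (1.25) and Cldn6 (0.92) rose, whereas Cubn (-4.19), Mttp (-1.92), Bmp2 (-1.42) and Amn (-1.15) fell. Cubn had 7.43, 7.51 and 7.56 in CHIR cells, against 11.47, 11.87 and 11.73 in Control cells, and Lrp2 had 12.74, 12.62 and 12.52 in CHIR cells, against 10.88, 11.47 and 11.25 in Control cells. These partners in the uptake of nutrients from the maternal side thus moved in opposite directions. Serum-type products of mature visceral endoderm were near background in both groups, Afp at 5.60 ± 0.11 in CHIR cells and 5.76 ± 0.18 in Control cells and Ttr at 6.25 ± 0.02 in CHIR cells and 6.40 ± 0.12 in Control cells, and of 37 lipoproteins and liver-type secreted proteins 2 rose and 2 fell. Of the 11 core genes of extraembryonic endoderm, 6 fell, led by Dab2 (-1.07) and Gata6 (-0.59), and 2 rose, Foxq1 (0.37), whose call was lost without Control replicate 1, 2 or 3 or without CHIR replicate 1, and Pdgfra (0.31), while Gata4 (-0.05) did not pass.

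Some regulators known from other lineages also changed. Cdx2, a regulator of trophoblast and of the posterior body, had 7.78, 7.34 and 7.83 in CHIR cells, against 5.48, 5.48 and 5.51 in Control cells, a rise of 2.16 from near background, and Gata3 had 7.85, 8.12 and 8.14 in CHIR cells, against 6.21, 6.09 and 6.27 in Control cells, a rise of 1.85. Gata2 rose by 1.74. Both Cdx2 and Gata3 were above background on the CHIR arrays alone. Of the 6 measured trophoblast markers, the other 4 (Elf5, Tfap2c, Hand1 and Ascl2) were near background in both groups, and the mean over the 6 was 6.43 to 6.58 on CHIR arrays and 5.89 to 5.99 on Control arrays. Whether other cells had a part in these values was not tested. Cdx1 (0.06) and Cdx4 (-0.07) stayed near background and did not pass, and of 31 Hox genes 2 fell and 0 rose (2 rose at an unadjusted p under 0.05 in limma). Pou5f1, which encodes the pluripotency factor Oct4, had 6.37, 6.79 and 6.98 in CHIR cells, against 8.25, 7.80 and 8.47 in Control cells, and fell by 1.46, while Nanog and Sox2 were near background. Among chromatin genes, 9 of 53 rose and 11 fell. The DNA methyltransferase genes split, with Dnmt3b at 6.82, 6.22 and 6.81 in CHIR cells, against 9.11, 9.09 and 9.37 in Control cells, Dnmt3a lower by 1.36, and Dnmt1, which copies methylation at replication, higher by 0.23, a call lost without any 1 of the 6 arrays. With the mean of the probe sets, 15 chromatin genes rose. Tet1, which starts removal of DNA methylation, rose by 1.03, and the acetyltransferase gene Kat2b rose by 1.02.

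In the basement membrane and among the enzymes that remodel matrix, more genes fell than rose. Of 27 basement membrane genes, 13 fell and 1 rose, with a median of -0.19. Beside Nid1 (-2.04), the furthest falls were Fras1 (-1.44), Lama4 (-1.28), Nid2 (-0.95) and Hspg2 (-0.80), or perlecan, and Lama5 rose (0.45). At their brightest probe sets Fras1 (-0.10), Lama4 (0.00), Lama5 (0.27), Lama1 (-0.13) and Col4a1 (-0.21) did not pass. The abundant laminin and collagen chains changed less, Lama1 by -0.27, a call lost without Control replicate 3, and Col4a1 by -0.72. Col4a1 had 11.46, 11.51 and 11.30 in CHIR cells, against 11.98, 12.26 and 12.21 in Control cells, with no overlap between the groups. Of 40 matrix enzymes and inhibitors, 18 fell and 6 rose. Plat (-2.35), Serpinb9 (-1.88), Mmp11 (-1.76), Adamts9 (-1.48) and Mmp14 (-1.34) were the furthest falls, and Mmp15 (3.18), Serpine2 (1.16), Timp3 (1.10) and Mmp9 (0.79) the furthest rises. The membrane metalloproteinase genes Mmp14 and Mmp15 thus went opposite ways. Of 18 integrin subunits, 7 fell and 3 rose, with a median of -0.22. Itga2 (-1.81), Itga7 (-1.14) and Itga5 (-0.99), chains for collagen, laminin and fibronectin, fell, and Itgb4, the beta chain of hemidesmosomes, had 9.36, 9.39 and 9.23 in CHIR cells, against 7.13, 6.99 and 6.95 in Control cells, a rise of 2.31. Its partner Itga6 fell by 0.72. In the interstitial matrix, 7 of 30 fell and 4 rose, led by Col6a2 (-2.06) and Ltbp1 (1.19), and the rises numbered 2 without Control replicate 3 and 2 at the brightest probe set.

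Among genes of actin and of the SRF and YAP programmes, falls outnumbered rises. Of 43 measured, 22 fell and 4 rose, with a median of -0.39, and the rises numbered 2 at the brightest probe set. Acta1, skeletal muscle actin, had 8.69, 8.91 and 8.94 in CHIR cells, against 11.73, 11.54 and 11.63 in Control cells, a log2 difference of -2.79 (SE 0.09), and Tnnc1, troponin C, had 6.38, 6.90 and 6.63 in CHIR cells, against 9.78, 9.73 and 9.71 in Control cells, a difference of -3.10 (SE 0.13). The groups were separate by more than 2 log2 units for both genes. Ankrd1 (-2.61), Tagln (-2.31), Nexn (-1.84), Ccn1 (-1.79) and Ccn2 (-1.58), which are targets of SRF or YAP in other cells, fell, as did the factor genes Srf (-0.63) and Yap1 (-0.31) themselves. The rises were Fhl1 (1.06), the tropomyosin gene Tpm1 (0.76), Amotl1 (0.71, and 0.47 without Control replicate 1) and Mrtfa (0.63), which encodes a coactivator of SRF. The cytoskeletal actin gene Actb did not pass, at 13.52 ± 0.02 in CHIR cells and 13.58 ± 0.07 in Control cells. The promoter of Acta1 is printed because it holds a CArG box, the binding word of SRF, which was found in 6 of 34 promoters of the list (17.6%), against 1.33% of all windows. The TEAD motif GGAATG, of the factors that YAP binds, was found in 17 of the 34 (50%), against 12% of all windows. The list was drawn up to hold SRF and YAP targets, so these shares say nothing about CHIR. Over all genes that fell, the shares were 1.24% for the CArG box and 12.8% for TEAD, close to those of all windows. Capitals mark the CArG box in the Acta1 window, chr19:68784145-68784444 on the minus strand.
Acta1: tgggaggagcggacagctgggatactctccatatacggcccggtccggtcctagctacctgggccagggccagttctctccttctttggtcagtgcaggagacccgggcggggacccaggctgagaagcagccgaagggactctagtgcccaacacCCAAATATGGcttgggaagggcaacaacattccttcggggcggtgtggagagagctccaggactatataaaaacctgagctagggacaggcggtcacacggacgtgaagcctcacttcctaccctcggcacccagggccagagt

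Among junction genes, the share that passed was close to that over all genes, and several epithelial members rose. Of 33 claudins and tight junction genes, 7 rose and 2 fell (27.3% in all), with a median of 0.05. Cldn7 had 10.95, 10.90 and 10.74 in CHIR cells, against 8.58, 8.54 and 8.89 in Control cells, a rise of 2.19, and Cgn (1.01), or cingulin, Cldn4 (0.93) and Crb3 (0.80), a polarity protein, rose as well, Crb3 by 0.25 without passing at its brightest probe set. Cldn15 was among the falls (-0.62). Of 26 adherens junction and desmosome genes, 3 rose and 4 fell (26.9%), with Cdh1 at 12.15, 12.17 and 12.05 in CHIR cells, against 10.78, 10.73 and 10.93 in Control cells and Cdh4 (-2.22) and Cdh17 (-1.01) lower. Cdh2, or N-cadherin, was near background in both groups (5.53 ± 0.32 in CHIR cells and 5.53 ± 0.08 in Control cells). Of 18 regulators of epithelial state, 6 rose, among them Elf3 (1.66), the splicing factors Rbm47 (1.24) and Esrp2 (1.18) and Grhl2 (0.88), and 4 fell, with Klf5 (-0.81) and Snai1 (-0.41) among them. Zeb1 and Zeb2, repressors of Cdh1, were near background in both groups. The keratins Krt18 (0.88), Krt19 (0.55) and Krt8 (0.49) rose, each by far less than Vim (-4.38) fell.

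Falls outnumbered rises among growth factor receptors, while the ligands were nearer to balance. Of 46 receptor tyrosine kinases and relatives, 16 fell and 7 rose, with a median of -0.06. Ret, the signalling receptor for the GDNF family, had 6.75, 7.02 and 6.94 in CHIR cells, against 10.33, 10.18 and 10.48 in Control cells, and Fgfr3, a receptor for fibroblast growth factors, had 6.57, 6.36 and 6.56 in CHIR cells, against 9.66, 9.84 and 9.75 in Control cells. Both were far above background in Control cells, and the CHIR arrays lay near or just above it. Tek (-2.42), Ephb2 (-2.14) and Igf1r (-1.90) fell too, and Lrig1 (1.54), which restrains such receptors, rose. When a gene was taken at its brightest probe set in place of the median, 3 of these receptors rose. The fall of Ret was not seen at its brightest probe set (0.10, adjusted p = 0.753 in limma), while 22 of its 23 probe sets passed as lower. Of 47 growth factor ligands, 6 rose and 9 fell, a passing share of 31.9%, against 28.1% over all genes. With the mean of the probe sets 7 rose and 11 fell, with the brightest 8 and 9, and without Control replicate 3, 6 and 7. Igf1 (3.35), Efnb1 (1.54) and Igf2 (1.21) rose, and Fgf10 (-2.39), Nrg1 (-1.54) and Pdgfa (-1.19) fell. Igf1r had 7.07, 7.30 and 7.26 in CHIR cells, against 9.15, 9.15 and 9.02 in Control cells, so the receptor of the IGF ligands was lower in cells in which both ligand genes were higher. Of 26 genes of the IGF axis and imprinted genes, 5 rose and 10 fell. The imprinted RNA gene H19 had 12.47, 12.46 and 12.48 in CHIR cells, against 9.86, 9.78 and 9.83 in Control cells, a rise of 2.65, and the binding protein genes Igfbp7 (-2.68), Igfbp3 (-1.33) and Igfbp4 (-1.29) fell.

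Genes that respond to the kinase ERK, and its feedback phosphatases, mostly fell. Of 34 measured, 19 fell and 5 rose, with a median of -0.41. Egr1, an early response transcription factor, had 6.85, 7.37 and 7.49 in CHIR cells, against 9.72, 9.86 and 9.75 in Control cells, a log2 difference of -2.54 (SE 0.13), and Dusp4, a phosphatase of ERK, had 5.81, 6.10 and 6.24 in CHIR cells, against 8.48, 8.32 and 8.32 in Control cells, a difference of -2.33 (SE 0.13). No CHIR array reached the Control range in either gene. Myc (-1.47), Spry4 (-1.10), Dusp2 (-1.02) and Dusp6 (-0.99) fell, whereas Il17rd (1.75) and Spry1 (1.18), both inhibitors of receptor signalling, and Ier3 (0.87) rose. When a gene was taken at its brightest probe set in place of the median, 10 of these genes fell and 3 rose. The count of rises was also 3 without Control replicate 1 or 2 or without CHIR replicate 2 or 3.

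**Figure D4:**
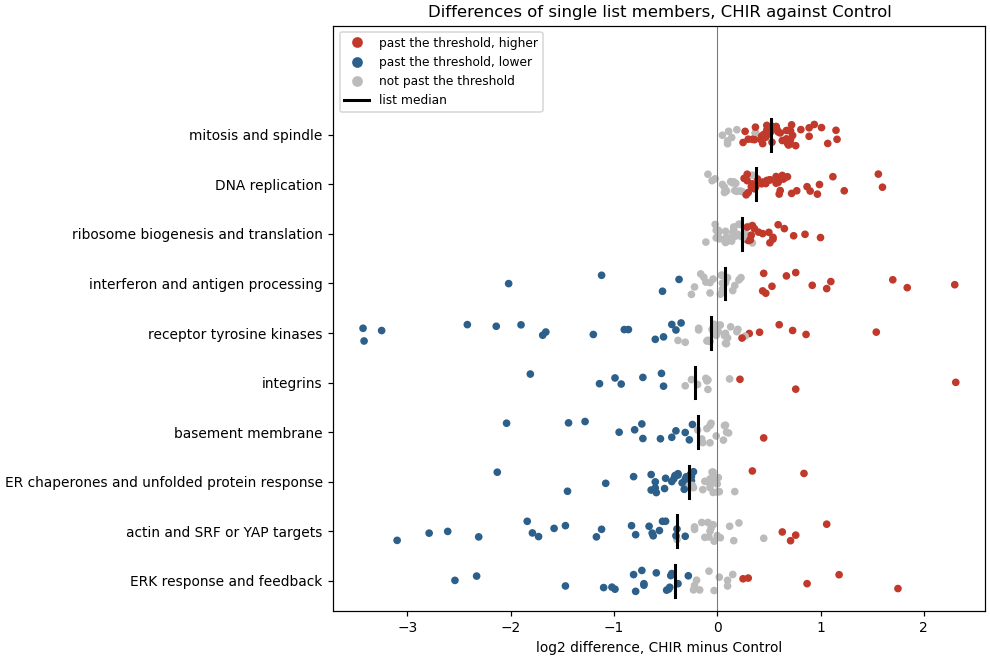
Log2 differences, CHIR minus Control, of single members of 10 gene lists, 1 point per gene, red where the gene rose past the threshold, blue where it fell and grey where it did not pass. The black bar is the median of the list. Members of mitosis and DNA replication lie between -0.09 and 1.60, most of them above 0, while receptor kinases and actin targets spread over several log2 units with most of the large differences below 0.

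Other signalling families had single members that moved widely in both directions. Against 28.1% over all genes, the share that passed was 54.4% for BMP, activin and TGF-beta and 56.1% for semaphorins and related genes. It was 39.2% for nuclear receptors and retinoid genes and 34.6% for the cAMP and PTHrP pathway. For Notch and Hedgehog genes, at 26.7%, it was no higher than over all genes. Of 57 genes of BMP, activin and TGF-beta signalling, 9 rose and 22 fell. Bmp4 had 10.33, 10.44 and 10.60 in CHIR cells, against 8.10, 8.14 and 8.03 in Control cells, a rise of 2.37, and Bmp3 (-2.63), Bmp2 (-1.42), Bmp6 (-1.41) and the target Id4 (-1.67) fell. Id1 (0.76), Smad7 (0.60) and the activin antagonist gene Fst (0.65) rose. With the mean of the probe sets, 14 genes of this list rose in place of 9. Of 30 Notch and Hedgehog genes, 3 rose and 5 fell. Smo had 6.61, 6.64 and 6.54 in CHIR cells, against 9.70, 9.44 and 9.52 in Control cells, while the ligand Ihh rose and the targets Gli1 (-0.05) and Hhip (0.09) were near background in both groups. Of 41 semaphorins, netrins, slits and their receptors, 9 rose and 14 fell. The receptors Nrp1 (2.45) and Nrp2 (1.45) rose, Nrp2 by 0.09 at its brightest probe set (adjusted p = 0.728), and the ligands Sema6d (-2.38), Sema5a (-2.22), Sema3c (-1.75) and Sema3f (-1.60) fell. Nrp1 had 8.13, 7.71 and 7.90 in CHIR cells, against 5.40, 5.43 and 5.56 in Control cells, with a Control signal near background. With the brightest probe set, 8 genes of this list fell in place of 14, and 3 of the Notch and Hedgehog list in place of 5. Of 51 nuclear receptors and retinoid genes, 9 rose and 11 fell, with Pparg at 8.38, 8.65 and 8.76 in CHIR cells, against 10.81, 10.70 and 10.85 in Control cells and Stra6, which takes up retinol, lower by 1.51. Of 52 genes of the cAMP and PTHrP pathway, 6 rose and 12 fell, led by the phosphodiesterase gene Pde7a (1.15) and by Pde3a (-2.11). The receptor for parathyroid hormone and PTHrP, Pth1r, fell by 0.63.

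Genes of protein folding in the endoplasmic reticulum fell more often than they rose. Among 46 measured genes of ER folding and stress sensing, 26 fell and 2 rose, with a median of -0.27. Derl3, a factor that extracts misfolded proteins, had 5.50, 5.65 and 5.59 in CHIR cells, against 7.82, 7.64 and 7.66 in Control cells, a log2 difference of -2.13 (SE 0.08), and Sdf2l1, a cofactor of the main chaperone, had 7.74, 7.87 and 7.92 in CHIR cells, against 9.45, 9.15 and 9.28 in Control cells, a difference of -1.45 (SE 0.11). The 2 groups did not overlap, and Derl3 was near background on the CHIR arrays. Ero1b (-1.08) and Herpud1 (-0.81) followed, and the abundant chaperone Hspa5 (-0.14) and the stress factors Ddit3 (0.17) and Xbp1 (-0.04) did not pass. Ddit3 passed as higher with the mean of the probe sets (0.29, adjusted p = 0.0284) and at its brightest (0.51, adjusted p = 0.00995), and Hspa5 as lower with an intensity trend (adjusted p = 0.0109). The sensor Ern1 rose (0.84). With the brightest probe set, 17 of the list fell, with only the 2 groups in the fit 22, and with single arrays left out 19 to 23. The promoter of Derl3 is printed because it holds the ER stress element, CCAAT then 9 bases of any kind then CCACG. The element was found in 9 of 38 promoters of the list (23.7%) and in 0.117% of all windows. Over all genes that fell the share was 0.431%, and over all genes that rose it was 0. In Derl3 the element stands in reverse complement, marked in capitals, in the window chr20:12766416-12766715 on the minus strand.
Derl3: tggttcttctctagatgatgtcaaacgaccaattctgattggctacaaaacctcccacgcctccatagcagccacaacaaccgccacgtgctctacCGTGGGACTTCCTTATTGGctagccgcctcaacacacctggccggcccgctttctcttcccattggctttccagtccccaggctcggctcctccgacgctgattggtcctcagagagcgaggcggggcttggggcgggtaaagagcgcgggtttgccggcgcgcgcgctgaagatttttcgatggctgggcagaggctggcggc

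Lysosomal and endocytic genes went both ways. Of 47 lysosomal genes and MiT/TFE factors, 11 rose and 11 fell. Beside Tfec, its relative Mitf fell (-1.94), while Tfeb rose (0.36) and Tfe3 did not pass (0.10). Galns (0.65) and Asah1 (0.55), enzymes of the lysosome, rose and Scarb2 (-0.75) and Gusb (-0.70) fell. The count of rises was 6 with the brightest probe set and 7 without Control replicate 1, Control replicate 3 or CHIR replicate 1. Of 31 genes of endocytic uptake, 7 rose and 11 fell. Cav1, the main protein of caveolae, had 7.51, 7.32 and 7.93 in CHIR cells, against 10.28, 10.37 and 10.26 in Control cells, a fall of 2.72, and Cavin3 (-1.59) and Lrp1 (-1.32) fell as well, whereas Vldlr (1.38) and the transferrin receptor gene Tfrc (0.50) rose. Of 34 genes of Golgi and secretory traffic, 3 rose (1 without Control replicate 3) and 6 fell, led by Golgb1 (-0.74). The share that passed, 26.5%, was close to the 28.1% over all genes.

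Metabolic lists held genes that moved in both directions, in shares that differed between pathways. The share that passed was 44.4% for fatty acid and lipid metabolism, 36.8% for cholesterol synthesis and 50% for oxidative stress and glutathione. For glycolysis and hypoxia (30%) and mitochondrial respiration (26.8%) it was close to the 28.1% over all genes. Among all genes above background, 42.6% passed. Of 45 genes of fatty acid and lipid metabolism, 10 rose and 10 fell. Acsl1 (1.47), which activates fatty acids, and Pnpla2 (0.95), which breaks down stored fat, rose, while Cpt1a, which admits fatty acids to mitochondria, had 7.99, 8.14 and 7.97 in CHIR cells, against 9.73, 9.79 and 9.93 in Control cells, and fell by 1.78. Acadvl (-1.14) and Acacb (-1.06) fell with it. With the brightest probe set, 5 genes of the list fell. Of 19 cholesterol synthesis genes, 4 rose and 3 fell, all by less than 1 log2 unit, and of 40 glycolysis and hypoxia genes, 7 rose and 5 fell, led by Pfkfb1 (1.43) and Pdk1 (-0.74). The falls in glycolysis numbered 10 with the mean of the probe sets, 3 with the brightest, 11 with an intensity trend and 8 without CHIR replicate 3. Of 41 genes of mitochondrial respiration, 10 rose and 1 fell, led by Ndufs1 (0.72), and the count of rises was 5 with the brightest probe set. Of 44 genes of oxidative stress and glutathione, 12 rose and 10 fell. The subunits of the enzyme that starts glutathione synthesis split, with the modifier Gclm higher by 0.84 and the catalytic Gclc lower by 1.41. Gclm had 11.05, 10.87 and 11.21 in CHIR cells, against 10.46, 10.06 and 10.09 in Control cells, and Gclc had 10.20, 10.29 and 10.48 in CHIR cells, against 11.88, 11.57 and 11.76 in Control cells, without overlap in either gene. Gpx8 (-1.71) fell and Gpx2 (0.84) rose.

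Transporters and channels carried some of the largest changes. Of 341 solute carriers, 61 rose and 68 fell, a passing share of 37.8%. Beside Slc44a4 and Slc6a2, Slc4a11 (2.16) and Slc51a (1.49) rose and Slc39a8 (-2.58), Slc38a5 (-1.49) and Slc41a2 (-1.43) fell. Of 48 ion pumps and channels, 9 rose and 9 fell. Trpm6 had 10.48, 10.25 and 10.14 in CHIR cells, against 7.12, 7.56 and 7.05 in Control cells, and its relative Trpm4 fell by 2.27. Atp1b1 had 11.95, 11.91 and 11.91 in CHIR cells, against 8.87, 9.07 and 9.03 in Control cells. Kcnj15 (1.88) and the water channel gene Aqp8 (1.30) rose, and Kcnq1 (-1.94) and Trpv4 (-1.92) fell. With the brightest probe set, 4 of this list fell.

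Among immune genes, the chemokine, complement and acute phase genes lay mostly near background. Of 47 chemokine, complement and acute phase genes, 14 were above background, and 5 rose and 6 fell (23.4%, against 28.1% over all genes). The falls numbered 3 without Control replicate 1, Control replicate 3 or CHIR replicate 3, and the rises 3 with the brightest probe set. Beside Ccl24 and Lbp, Lif rose (1.17) and Cxcl16 fell (-2.18). Of 37 interferon-stimulated and antigen processing genes, 25 were above background, and 12 rose and 4 fell, with a median of 0.08. The falls numbered 7 with the mean of the probe sets. Gbp2, an interferon-induced GTPase, had 8.64, 8.57 and 8.57 in CHIR cells, against 6.46, 6.14 and 6.27 in Control cells, and Rsad2, an antiviral enzyme, had 8.69, 9.02 and 9.15 in CHIR cells, against 7.04, 7.05 and 7.26 in Control cells. Both genes were higher on all CHIR arrays. Mx2 (1.70), Irf8 (1.10) and Oasl (1.06) rose, whereas Ifitm1 (-2.02) and Cd74 (-1.12) fell and Ifit1 (0.08) was near background. Several of these genes have close relatives on the array, and whether their probes share signal was not tested. Of 40 apoptosis genes, 10 rose and 8 fell, with Bcl2 at 7.41, 6.61 and 6.56 in CHIR cells, against 8.83, 9.25 and 9.21 in Control cells, and Bcl2l1, a related survival factor, higher by 0.72, a call lost without Control replicate 3 or without CHIR replicate 2. The rises in apoptosis numbered 6 without Control replicate 3 and 6 with the brightest probe set.

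Lists of protein folding and of other cell types held smaller or mixed changes. Of 42 genes of heat shock and protein turnover, 10 rose and 3 fell (31%, against 28.1% over all genes), with a median of 0.13. The rises in heat shock numbered 17 with the mean of the probe sets. The chaperone gene Hsph1 had 9.47, 9.58 and 9.44 in CHIR cells, against 8.55, 8.66 and 8.12 in Control cells, a rise of 1.05, and its partners Fkbp4 (0.75) and Stip1 (0.63) in the Hsp90 cycle rose as well, while the small heat shock protein gene Hspb8 fell (-1.61). Of 12 genes of endothelium and blood, 1 rose and 3 fell, with Tek (-2.42) as the largest, and the mean over the 6 markers was 6.34 to 6.41 on CHIR arrays and 6.71 to 6.81 on Control arrays. Of 9 genes of mesoderm and definitive endoderm, 1 rose and 1 fell, of 13 fibroblast genes 1 rose and 1 fell, each by less than 1 log2 unit, and of 7 pluripotency genes Klf4 rose (1.05) and Pou5f1 fell. Of 9 posterior body regulators, 2 rose and 2 fell, Cdx2 and Pbx4 (0.33) upwards and the Hox cofactor genes Meis3 (-1.49) and Meis2 (-0.85) downwards.

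Among gene families taken by name, tetraspanins and protocadherins held several falls. Of 25 tetraspanins, 11 fell and 3 rose, with a median of -0.18, led by Tspan2 (-1.97), Tspan4 (-0.87) and Tspan6 (-0.79). Of 56 protocadherins, 14 fell and 0 rose (2 rose at an unadjusted p under 0.05 in limma), led by Pcdh19 (-2.37) and Pcdh1 (-1.61). Clustered protocadherins share exons, so their values are not independent. Of 35 kinesins, 16 rose and 6 fell. Kif21a had the largest rise (1.86), above that of the mitotic motor Kif4a (1.16). For the remaining families the share that passed is given in brackets, against 28.1% over all genes. Collagens had 7 falls and 1 rise of 38 (21.1%), and 24 of 212 zinc finger proteins rose and 40 fell (30.2%). Myosins had 5 rises and 10 falls of 37 (40.5%), and 8 of 55 Rab GTPases rose and 11 fell (34.5%). Potassium channels had 7 rises and 8 falls of 88 (17%), and 4 of 76 cytochromes P450 rose and 8 fell (15.8%). Serpins had 1 rise and 4 falls of 39 (12.8%), and 3 of 35 complex I subunits rose and 1 fell (11.4%). T-box, Fox and Sox factors had 8 rises and 12 falls of 64 (31.2%). Above background lay 23 of the potassium channels, 13 of the cytochromes P450 and 7 of the serpins. Of 28 histone genes, 7 rose and 1 fell (28.6%). Of 41 proteasome subunits, 6 rose and 0 fell in limma (0 at an unadjusted p under 0.05), a passing share of 14.6%.

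The same CHIR treatment was also measured in cells that received forskolin for the last day. That was done in 6 further arrays, whose values do not enter the differences above. Their spread does enter the shared estimate behind the p-values, so the calls with and without forskolin are not fully independent. CHIR plus forskolin against forskolin alone changed 2728 genes upwards (16.4%) and 2270 downwards (13.6%). Of the 4677 genes that passed without forskolin, 91.4% had the same sign with it, against 71.4% of all genes, and 3149 passed in the same direction. The genes that passed in both comparisons were 69% of those without forskolin and 64.5% of those with it, and 76 of them had opposite signs. Of the 795 that changed by at least 1 log2 unit, 693 passed the same way with forskolin. Across the 16633 genes the differences had a Pearson correlation of 0.768, where genes are not independent replicates. Of the 40 leading genes, 38 passed in the same direction. Axin2 differed by 2.71 with forskolin and by 2.89 without, Tcf7 by 2.75 and 3.50, and Igf1 by 2.81 and 3.35.

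The effects with and without forskolin were then compared directly. The difference between them passed for 1050 genes (6.31%) and for 28 of the 40 leading genes, of which 26 had a smaller effect of the same sign with forskolin. Cited1 had 9.56, 9.24 and 9.32 with CHIR plus forskolin, against 10.09, 10.19 and 9.97 with forskolin alone. Its difference was -0.71 with forskolin and 3.56 without (difference of the effects -4.27, adjusted p = 3.63e-08). In cells given forskolin the gene was thus high with or without CHIR. Emp1 had 10.52, 10.36 and 10.56 with CHIR plus forskolin, against 5.66, 5.91 and 5.66 with forskolin alone, and its CHIR effect was larger with forskolin (4.74, against 3.06 without). Lbp had 11.56, 10.35 and 10.27 with CHIR plus forskolin, against 10.07, 10.16 and 10.04 with forskolin alone, with 1 CHIR plus forskolin array well above the others, and its CHIR effect with forskolin, 0.63, did not pass (adjusted p = 0.077). Tnnc1 had 6.32, 6.13 and 6.36 with CHIR plus forskolin, against 6.86, 6.76 and 6.48 with forskolin alone, with an effect of -0.43. Its level with forskolin alone was thus already close to background, while its Control mean was 9.74. Of the 58 mitotic genes, 57 passed as higher with CHIR plus forskolin than with forskolin alone, with a median of 0.95, and of the 54 replication genes 38 did, with a median of 0.52. ER chaperones had 4 rises and 11 falls with forskolin, with a median of -0.09, actin and SRF or YAP targets 6 and 14 with -0.10, and ERK genes 9 and 8 with -0.15. The differences between these list values were not tested.

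**Figure D5:**
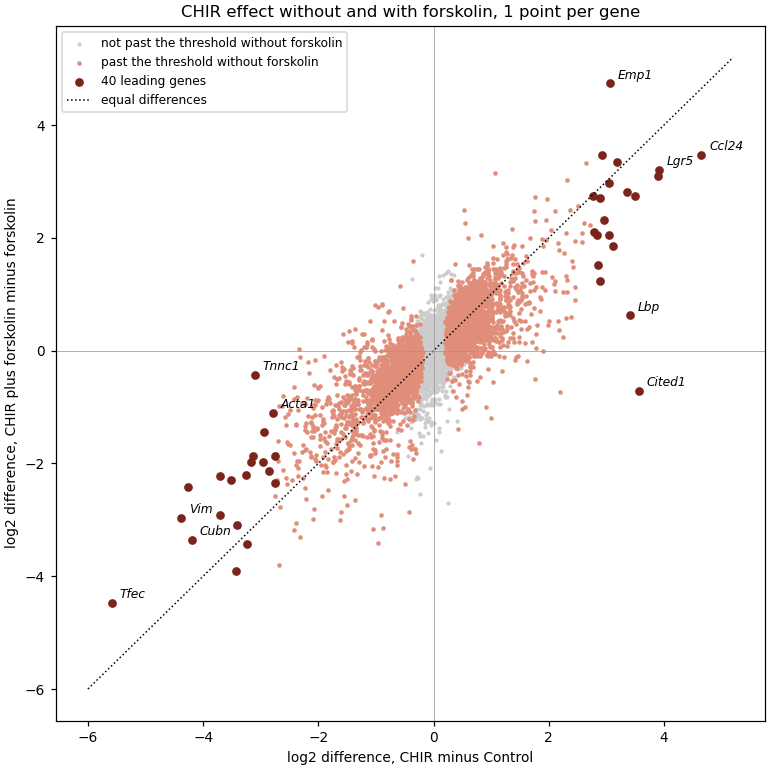
Log2 difference made by CHIR without forskolin (horizontal axis, CHIR minus Control) and with forskolin (vertical axis, CHIR plus forskolin minus forskolin), 1 point per gene. Coloured points passed the threshold without forskolin, and dark points are the 40 leading genes. Most lie at the lower left and upper right, many of the leading genes on the side of the dotted line of equal differences that is nearer to 0 on the vertical axis, with Emp1 above the line and Cited1 below 0.

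A gene value is a median over probe sets, and it can hide changes of part of a gene. Of the 276 named genes that passed, 74 had a difference more than 1.5 times larger or smaller at their brightest probe set, and 19 with the mean of the probe sets, against 1 when single arrays were left out. At the brightest probe set the sign turned for Ace, Grip2, Ret, Fhl1, Meis2 and Slc4a11. Of these, only Ace and Grip2 passed in limma the opposite way (adjusted p = 1.23e-04 and 0.00959), and the others did not pass. The call was also lost for a further 27 named genes. These were Ank3, Car7, Ccnd1, Cldn15, Col4a1, Crb3, Dnmt1, Dst, Dusp2, Fancl, Fras1, Kcnq1, Lama1, Lama4, Lama5, Lgr4, Mx2, Myc, Nrp2, Pbx4, Pde7a, Pdgfra, Prodh, Tfeb, Tpm1, Tspan2 and Yap1. Over probe sets with 1 gene symbol, 18.3% passed. Of the 12847 genes with at least 4 probe sets, 229 held probe sets that passed in both directions, and 2317 did not pass as a gene but held a probe set that did. Ank3, which encodes an adaptor of the membrane skeleton and is known for its many isoforms, had 24 probe sets that fell and 2 that rose out of 54, from -2.52 to 2.14. Dst, which encodes the cytoskeletal linker dystonin, had 10 that fell and 1 that rose of 125, from -2.57 to 2.59, and as a gene differed by -0.37, a call lost without Control replicate 2 or without CHIR replicate 2 or 3. Grip2 had 12 that fell and 2 that rose of 31, from -3.80 to 2.87. Ace and Col2a1 were the other genes chosen by the size of their opposite probe sets, and Col2a1 did not pass as a gene (adjusted p = 0.579). A probe set of a neighbouring gene or an error in the annotation would look the same, and this was not tested. Probe sets with no gene name made 36610 of the 211195, and 3683 of them passed (10.1%), 1888 higher (5.16%) and 1795 lower (4.9%).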

How the data were processed

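Per the labels' protocols, total RNA was purified with DNase treatment and labelled by the whole-transcript protocol of Affymetrix, giving 1-colour arrays. The deposited values were taken to be log2 signals from their range, with array medians of 7.76 to 7.86. RMA, a method of background correction, normalization between arrays and probe summary, and Partek are the tools in the submitters' processing notes. No version of either tool, and no genome build, is stated in the sources used here. The members and gene lists were chosen with earlier results of these data known.

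Of the 211195 probe sets, 172924 carried 1 gene symbol in the platform annotation, 1661 several and 36610 none. Symbols were updated through RefSeq, with 12878 current, 3659 updated and 96 kept. Each gene was given the median log2 signal of its probe sets with 1 symbol, with a median of 8 probe sets per gene and 1788 genes with 1. For all 16633 genes, limma 3.58.1 in R 4.3.3 fitted 4 group means over all 12 arrays, which share the estimate of spread (lmFit and eBayes without trend, residual df 8, prior df 5.53). Tests were two-sided, with Benjamini-Hochberg adjustment over all genes. The same model was fitted to all probe sets. Array correlations over genes lay between 0.995 and 0.997 for arrays of the same group and between 0.966 and 0.990 otherwise, and 3 arrays per group limit the precision. Python 3.11.15 served for tables and figures.

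No scan dates or other batches are in the sources used here. Deviations of same-numbered arrays correlated between -0.195 and 0.157, and those of arrays with different numbers between -0.132 and 0.224. No pairing by replicate number was thus seen, but 3 arrays per group cannot exclude that same-numbered arrays were handled together. The genes named were the 20 largest rises and falls whose arrays did not overlap and whose higher mean lay at or above the median gene, up to 5 rises and 5 falls of each list or family, a fixed set of marker and pathway genes, genes with probe sets in both directions, and list members that fill a role. The 54 lists and 20 families got no test of their own, and 1 list is not reported here. The motifs searched were those of TCF/LEF, E2F, CHR, the CArG box, TEAD, the ER stress element, CRE (TGACGTCA, in 0 of 37 promoters of the cAMP list and 2.47% of all) and CLEAR (TCACGTGA, in 5 of 36 lysosomal promoters, 13.9%, and 1.28% of all). Alternatives changed the summary of probe sets, the normalization, the filter on dim genes, the groups in the fit, the intensity trend, the replicate block and the arrays included.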

Additional observations from a re-analysis of the deposited data

Results flagged for a closer look

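For 28 of the 40 leading genes the effect of CHIR with forskolin differed from its effect without, by limma's test of the difference itself (adjusted over all genes, 3 arrays per group). The difference of the effects is given as the effect with forskolin minus the effect without, so a value of the opposite sign to the effect without forskolin means a smaller effect with it. Among genes that rose with CHIR it was -4.27 for Cited1, -2.78 for Lbp, -1.67 for Trim14, -1.34 for Ano7, -1.27 for Ptpn18, -1.17 for Ccl24, -0.99 for Slc44a4, -0.79 for Pbld1, -0.78 for Car7, -0.72 for Lgr5 and -0.64 for Hacd3. Emp1 was the exception, at 1.67, with a larger rise when forskolin was present.

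Among genes that fell with CHIR it was 2.67 for Tnnc1, 1.85 for Tmem63c, 1.69 for Acta1, 1.50 for Rspo3, 1.48 for Gpm6b, 1.42 for Vim, 1.26 for Elfn1, 1.21 for Cttnbp2, 1.19 for Masp1, 1.11 for Tfec, 1.05 for Fgfr3, 0.98 for Smo, 0.91 for Tshr, 0.84 for Cubn, 0.79 for Lmo1 and 0.72 for Slc6a2. All 16 fell less with forskolin. Some of them started lower in cells given forskolin alone. Tnnc1 had a mean of 6.70 there, close to the background level of 6.42, against 9.74 in Control cells, and Acta1 had 9.88 against 11.63. Others did not, such as Tmem63c with 11.63 against 11.49. How far the starting level limited a fall was not tested. The leading genes were chosen for a large effect without forskolin, and how far that choice alone makes the effect with forskolin smaller was not tested.

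Probe sets without a gene name lie outside the gene values, and 3683 of them passed in CHIR against Control, with 3 arrays per group. Their genes are not named here.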

How the results depend on the processing

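The count of genes that passed, 4677, ran from 3861 with the brightest probe set to 5992 with the mean of the probe sets, and from 4001 to 4272 when single arrays were left out. Centring the arrays shifted the median gene by 0.016 and moved the share of higher calls to 53.7%, against 50.7%. The replicate block gave 4581 genes, and is not a paired analysis of known pairs, since it is not known whether the numbers pair the arrays. With forskolin the count of 4998 ran from 4250 to 6416. The difference between the 2 CHIR effects passed for 1870 genes with the mean of the probe sets and 630 with the brightest, against 1050, and for 838 to 1007 when single arrays were left out. These alternatives for the difference were chosen after seeing the data.

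Of the 276 named genes that passed, 9 lost their call when an array was left out (Bcl2l1, Dkk1, Dnmt1, Dst, Foxq1, Fzd7, Lama1, Lgr4 and Wif1), 4 under other fits (Dnmt1 and Lgr4 under the replicate block among them), and 2 with the mean of the probe sets (Dkk1 and Dst). At the brightest probe set 27 lost it, and the difference was 2.00 for Ace, -0.34 for Fhl1, 0.72 for Grip2, 0.34 for Meis2, 0.10 for Ret and -0.08 for Slc4a11, each of the opposite sign. Of these differences only those of Ace and Grip2 passed. The cause was not tested. Named genes that did not pass did so with the mean of the probe sets for Ddit3, Elf5, Gsk3a and Sparc, at the brightest for Ddit3, and with an intensity trend for Hspa5 and Sparc. No list median of at least 0.1 turned its sign under the 14 alternatives, but sizes moved. At the brightest probe set the median was -0.35 for parietal endoderm (against -0.53), -0.24 for ERK genes (against -0.41), -0.13 for integrins (against -0.22) and 0.08 for heat shock (against 0.13). With dim genes left out, which leaves fewer members, it was -0.44 for basement membrane (against -0.19), -0.52 for integrins and -0.44 for receptor kinases (against -0.06), and with the mean of the probe sets -0.31 for basement membrane and -0.13 for integrins. Receptor kinases had -0.11 without Control replicate 3 and -0.12 without CHIR replicate 3. A dim gene has a compressed difference, so signals near 6.42 limit what could be measured.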
